A study of Mus musculus with 12 samples.

Results

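Among the genes of mouse cerebral vessels, 43 stayed within a log2 change of 0.6 from the controls at 15 min and 30 min after lipopolysaccharide (LPS). They were at 17.2% of the control level or less at 4 h. The members were chosen from the deposited gene table of 54331 genes by their group means. With 20 added to each mean, a member had a log2 change from PBS of −2.5 or lower at 4 h, a change of no more than 0.6 in either direction at both 15 min and 30 min, and a mean of at least 400 normalized counts in PBS. Genes of the X and Y chromosomes, Slc genes and 10 named genes (Sox18, Sox17, Sox7, Cldn5, Notum, Adh1, Cav2, Apcdd1, Axin2 and Lef1) were left out by the rule. Since these 3 changes chose the members, they are given below as values without a test. Of the 43 members, 40 are annotated as protein coding, and the members made up 0.496% of the 8677 genes with a PBS mean of at least 400.

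The 12 libraries were made from vessels of the forebrain of wild-type C57BL6 mice aged 2 to 3 months, given LPS intraperitoneally at 10 mg/kg and killed 15 min, 30 min or 4 h later, or given PBS. Each of the 4 groups had 3 libraries, and each library pooled the vessels of 1 male and 1 female mouse, so that neither single animals nor the sexes can be told apart. A single PBS group was the control for all 3 times. The vessels were purified from the tissue without sorting, so that endothelial cells, pericytes, smooth muscle cells, fibroblasts and adhering cells entered the same RNA. Levels are normalized counts, which can be compared between libraries for 1 gene. The libraries held 18.3 to 25.9 M fragments. TPM values, which the authors' software scaled for transcript length and to the same sum in each library, are used to compare levels between genes. Coordinates are those of GRCm38.

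LPS is a component of the outer membrane of Gram-negative bacteria that cells sense through a Toll-like receptor, and the endothelium is among the first cells that it reaches from the blood. Brain endothelial cells hold their specialised state through Wnt/beta-catenin signalling, through transcription factors of the SOX and ETS families, and through ligand and receptor systems such as angiopoietin with Tie2 and the Notch ligands with their receptors. Caveolae are pits of the cell membrane built from caveolins and cavins, and the basement membrane around the vessel is built of laminins and collagens. The members included genes of the Wnt, SOX, Tie2, Notch, caveolar and laminin systems.

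In all 43 members the 3 libraries of 4 h lay below the other 9, and the lowest of the 9 was at least 2.75 times the highest of the 3. That gap follows in part from the rule. Its share over all genes was not computed. The lesser condition, 4 h libraries below the PBS libraries alone and by any amount, was met by 41.4% of genes with a PBS mean of at least 400. With 20 added to each group mean, the median log2 change of the members at 4 h was −2.77. As a ratio of these sums it was 6.84-fold lower, with a range from 5.71-fold to 22.1-fold. Without the added 20, the median member kept 13.3% of its PBS level, and single members kept between 1.00% and 17.2%. The added 20 weighs most at low counts. Notumos, with a mean of 4.19 at 4 h, was 18.1-fold lower with it and kept 1.00% without it. The median log2 change over all genes with a PBS mean of at least 400 was −0.04. In the threshold test across all 19150 genes (edgeR, adjusted p below 0.05 for a change beyond 1.5-fold), 13.8% were lower and 19.0% were higher at 4 h. Of the 8677 genes with the PBS mean of the rule, 84, or 0.968%, met its 4 h limit. In RNA of whole vessels, fewer cells of a type and less RNA per cell cannot be told apart.

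**Figure D1:**
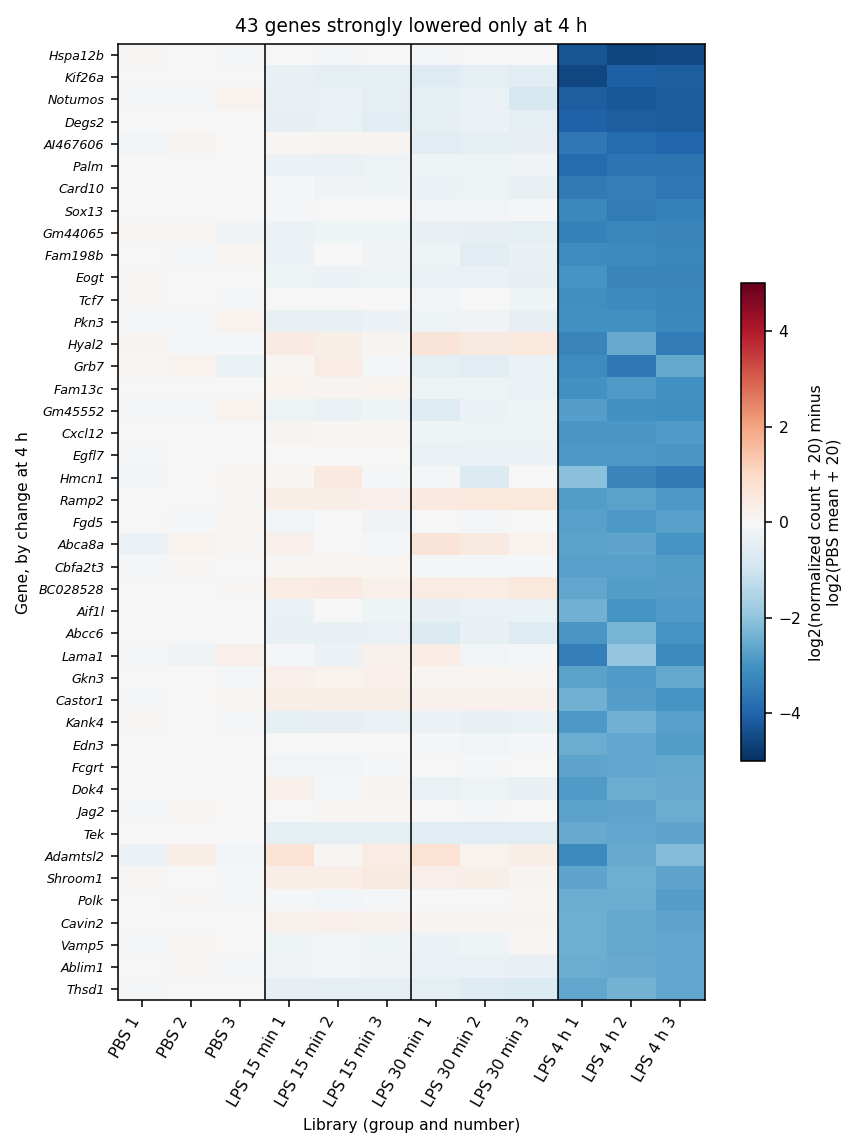
Heat map of the 43 members (rows, ordered by the change at 4 h) in the 12 libraries (columns, by group and library number). Colour gives log2 of the normalized count + 20 minus log2 of the PBS mean + 20, and the 3 columns of 4 h are blue in every row while the columns of 15 min and 30 min are pale, as the rule required.

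Of the 84 genes, 41 were no members. Of these, 8 were within the early limits but barred by name or chromosome (Slc9a3r2, Sox17, Slc52a3, Slco1a4, Slc38a5, 4930578C19Rik, Notum and Sox18), and 3 more were both barred and outside the early limits. The other 30 had left the early window, all of them downwards, the lowest at 4 h being Pllp, Prrt4 and Eln. At the 4 h limit, the members just inside were Thsd1 (log2 change −2.51), Ablim1 (−2.53) and Vamp5 (−2.53), and just outside stood Tnfsfm13 (−2.48), Trim65 (−2.48) and Lims2 (−2.44). At the early limit, the largest early changes inside were those of Thsd1 (0.60 in size), Kif26a (0.58) and Abcc6 (0.56), and just outside were Nxpe4 (0.61), Wscd1 (0.61) and S1pr4 (0.62). At the limit on the PBS mean, Notumos (417), Grb7 (446) and Adamtsl2 (459.7) were inside, while Sh3tc2 (337), Exoc3l2 (155) and Car5a (149) were outside. At the 4 h and early limits the genes just inside and just outside thus differed little.

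Promoters were read from the RefSeq table of GRCm38.p6, in windows of 300 bases with 250 before the annotated start and 50 after it. The table held 43 windows for 32 members, and gave none for Abcc6, Dok4, Eogt, Fam198b, Gm44065, Gm45552, Grb7, Lama1, Notumos, Ramp2 and Shroom1. The first window shown is that of Hspa12b, the member with the lowest change at 4 h (chr2:131127162-131127461, plus strand). The next 3 are those of the members that hold CTTTGAT, the core letters bound by T cell factor (TCF) and LEF proteins: 1 of 3 windows of Egfl7 (chr2:26580833-26581132, plus strand), Cxcl12 (chr6:117168285-117168584, plus strand) and Aif1l (chr2:31950053-31950352, plus strand). The last is 1 of 2 windows of Tcf7, which encodes such a protein (chr11:52282546-52282845, minus strand). Each is written 5′ to 3′ along its gene, with matches to the motifs named below in capitals.
Hspa12b: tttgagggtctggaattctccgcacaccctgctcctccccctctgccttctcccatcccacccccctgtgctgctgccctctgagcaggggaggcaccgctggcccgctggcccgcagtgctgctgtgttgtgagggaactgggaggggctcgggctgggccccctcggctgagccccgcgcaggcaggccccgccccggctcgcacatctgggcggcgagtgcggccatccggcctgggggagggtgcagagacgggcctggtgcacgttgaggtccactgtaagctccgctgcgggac
Egfl7: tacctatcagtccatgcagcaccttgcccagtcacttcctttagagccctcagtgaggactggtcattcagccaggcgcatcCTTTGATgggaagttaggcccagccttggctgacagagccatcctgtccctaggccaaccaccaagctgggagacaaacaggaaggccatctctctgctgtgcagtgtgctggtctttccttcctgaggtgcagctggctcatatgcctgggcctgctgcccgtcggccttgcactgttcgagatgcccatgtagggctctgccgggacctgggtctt
Cxcl12: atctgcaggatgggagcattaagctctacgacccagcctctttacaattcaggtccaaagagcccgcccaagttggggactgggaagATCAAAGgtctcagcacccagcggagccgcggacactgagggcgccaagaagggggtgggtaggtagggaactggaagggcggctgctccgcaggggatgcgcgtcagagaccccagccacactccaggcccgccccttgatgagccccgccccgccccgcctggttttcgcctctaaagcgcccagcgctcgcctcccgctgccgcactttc
Aif1l: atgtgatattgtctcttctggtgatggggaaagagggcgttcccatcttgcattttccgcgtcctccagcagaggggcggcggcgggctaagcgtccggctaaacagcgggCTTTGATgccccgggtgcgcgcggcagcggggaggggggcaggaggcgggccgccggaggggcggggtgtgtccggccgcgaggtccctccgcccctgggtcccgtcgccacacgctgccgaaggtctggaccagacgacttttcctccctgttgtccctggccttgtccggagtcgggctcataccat
Tcf7: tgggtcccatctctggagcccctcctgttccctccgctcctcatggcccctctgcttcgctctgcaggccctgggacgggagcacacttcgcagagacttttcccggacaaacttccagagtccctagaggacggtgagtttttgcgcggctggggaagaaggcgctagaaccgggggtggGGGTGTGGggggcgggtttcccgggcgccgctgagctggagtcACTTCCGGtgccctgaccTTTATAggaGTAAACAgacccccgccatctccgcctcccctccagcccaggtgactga

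Each motif was searched on both strands. The TCF/LEF letters CTTTGAT stood in 3 of the 43 windows of members (6.98%), beside 2.38% of the 8979 windows of genes with a PBS mean of at least 400 and 3.73% of all 32851 windows. They began 168 bases before the start in Egfl7, 163 in Cxcl12 (on the reverse strand) and 139 in Aif1l. The forkhead letters TGTTTAC were in the windows of Hmcn1, Fcgrt and Tcf7 (6.98%, beside 2.42% and 3.65%), and those of Hmcn1 overlapped the SOX letters CCATTGT, which no other member window held (2.33%, beside 1.99% and 3.66%). The KLF letters CCACACCC were in Fcgrt, Tcf7 and Card10 (6.98%, beside 3.59% and 3.56%).

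The ETS letters CCGGAAGT were in 1 window, that of Tcf7 (2.33%, beside 8.06% and 3.89%), and the E-box CACGTG in 1, that of Abca8a (2.33%, beside 9.76% and 7.15%). TATAAA was in 5 windows (11.6%, beside 6.91% and 13.6%), the AP-1 letters TGACTCA in those of Pkn3 and Ablim1 (4.65%, beside 3.61% and 5.20%), and the STAT letters TTCNNNGAA in those of Sox13 and Polk (4.65%, beside 6.37% and 8.30%). A motif of NF-kB was in none of the 43, beside 1.48% and 1.63%. With 43 windows, each of these shares rests on 0 to 5 matches, and no match says only that these letters are not in this window. The median GC share was 63.7% in windows of members and 61.7% in those of genes with a PBS mean of at least 400. The CpG ratio, observed over expected, was 0.548 and 0.769.

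Among the enzymes and chaperones, Hspa12b had the lowest log2 change of the set, with 20 added to each mean. It encodes a distant relative of the HSP70 chaperones that is known from endothelial cells (ENSMUSG00000074793, chr2:131127280-131146321, plus strand). Its normalized counts were 7801, 7605 and 7217 in PBS, 7453, 7283 and 7373 at 15 min, 7208, 7437 and 7453 at 30 min and 361, 297 and 310.3 at 4 h. The 9 libraries up to 30 min overlapped fully, and the 3 of 4 h stood far below them. Its change was −4.46 on the log2 scale (22.1-fold lower with 20 added to each mean). Its level per length went from 173 to 4.02 TPM. Over all genes with a PBS mean of at least 400, the median change in TPM at 4 h was −0.91 on the log2 scale. Falls in TPM, here and below, include this shift. Degs2, an enzyme that desaturates and hydroxylates dihydroceramide (ENSMUSG00000021263, chr12:108678711-108702315, minus strand), was at 2122, 2092 and 2126 in PBS, 1592, 1676 and 1476 at 15 min, 1561, 1717 and 1542 at 30 min and 111, 103 and 101 at 4 h. Both early groups lay below PBS without overlap, by less than the rule's limit, before the change of −4.09 at 4 h.

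Eogt adds O-linked N-acetylglucosamine to EGF repeats, those of the Notch receptors among them (ENSMUSG00000035245, chr6:97110024-97149182, minus strand). It had the second highest PBS mean of the set, with 14651, 13889 and 13888 normalized counts in PBS, 11720.0, 11631 and 11804 at 15 min, 11089, 11127 and 10680.1 at 30 min and 1806, 1423 and 1383 at 4 h. Every early library was below every PBS library, and the 4 h libraries kept 10.9% of the PBS level. Fam198b, a Golgi protein of a kinase family (ENSMUSG00000027955, chr3:79884533-79946280, plus strand), was lower in abundance, at 563, 542 and 608 in PBS, 464, 580.2 and 509.8 at 15 min, 476, 385 and 431 at 30 min and 47.6, 44.3 and 42.2 at 4 h. Its 15 min libraries overlapped PBS, and its change at 4 h was −3.19. The fifth of these genes was Polk, a DNA polymerase that copies past damaged bases, with a change of −2.56 and early libraries that overlapped PBS at both times.

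The transcription regulators were Sox13, Tcf7 and Cbfa2t3. Sox13, a factor of the SoxD group with a high-mobility-group box (ENSMUSG00000070643, chr1:133382303-133424377, minus strand), had 5204, 5358 and 5328 normalized counts in PBS, 5153, 5155 and 5266 at 15 min, 4859, 4816 and 4942 at 30 min and 548, 456 and 491 at 4 h. The libraries of 15 min overlapped PBS, those of 30 min lay just below it, and the change at 4 h was −3.36. Tcf7, a partner of beta-catenin on DNA (ENSMUSG00000000782, chr11:52252371-52283014, minus strand), was at 1385, 1277 and 1275 in PBS, 1279, 1301 and 1337 at 15 min, 1195, 1312 and 1119 at 30 min and 138, 127 and 119 at 4 h. Its early libraries overlapped PBS at both times, and it kept 9.74% of its PBS level at 4 h. Cbfa2t3, a corepressor known as ETO2, was at 1744, 1915 and 1820.2 in PBS, 1879, 1979.5 and 1938 at 15 min, 1708, 1750.2 and 1726 at 30 min and 258, 258 and 246 at 4 h, a change of −2.75, also with overlap at both early times.

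The relatives of these regulators moved in different directions in the test across all genes. Lef1, the TCF relative most typical of brain endothelium and barred from the set by name, fell by 0.65 (SE 0.036, adjusted p = 0.0397) on the log2 scale, and Tcf7l1 fell by 1.29 (SE 0.11, adjusted p = 1.52e-06). Tcf7l2 rose by 1.05 (SE 0.081, adjusted p = 3.68e-06). The SoxD relatives Sox5 (0.39) and Sox6 (0.33) did not pass the test. The call of Lef1 was lost in the fits without PBS library 2 (adjusted p = 0.0515), PBS 3 (0.108), 4 h library 2 (0.0619) or 4 h library 3 (0.110), with RLE factors (adjusted p = 0.0505) and in DESeq2 (adjusted p = 0.289). The call of Tcf7l2 was lost when libraries were scaled by library size alone, without a factor for composition. Changes of relatives, list genes and markers, here and below, are from the edgeR fit on summed estimated counts.

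The ligands, receptors and receptor partners were 6 genes with a median change of −2.70. Egfl7, a secreted EGF-like protein made by endothelium (ENSMUSG00000026921, chr2:26580014-26593120, plus strand), was the most abundant member, at 1457 TPM in PBS and 115 TPM at 4 h. Its normalized counts were 13805, 14558 and 14479 in PBS, 14382, 14538 and 14319 at 15 min, 11428, 11568 and 11757 at 30 min and 1918, 1939 and 1898 at 4 h. PBS and 15 min overlapped, 30 min was lower, and the 3 libraries of 4 h were close to each other.

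Tek encodes Tie2, the receptor of the angiopoietins (ENSMUSG00000006386, chr4:94739289-94874976, plus strand). It had 11479, 11729.6 and 11371 normalized counts in PBS, 8139, 8333 and 8167 at 15 min, 7682, 8082 and 7796 at 30 min and 1988, 1873 and 1833 at 4 h. It was among the members already lower early, at −0.49 and −0.55 on the log2 scale, and its change at 4 h was −2.59. Of its ligands, Angpt2, which can oppose Tie2 signalling, rose by 2.90 (SE 0.067, adjusted p = 9.28e-20) from 471 ± 45.9 to 3150.4 ± 265 normalized counts (mean ± SD, n = 3, as below). Angpt1, the activating ligand, fell by 0.98 (SE 0.10, adjusted p = 3.66e-04). The partner receptor Tie1, at −0.60, did not pass the test.

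Jag2 is a membrane ligand of the Notch receptors (ENSMUSG00000002799, chr12:112907819-112929776, minus strand). Its normalized counts were 11486, 13012 and 12424 in PBS, 12446, 12821 and 13270.1 at 15 min, 12146, 11800.5 and 12189 at 30 min and 1935, 1954 and 2183 at 4 h. The 9 libraries up to 30 min overlapped, and the change at 4 h was −2.59. Dll1, another Notch ligand, rose by 3.13 (SE 0.056, adjusted p = 3.70e-22), while Jag1 (0.15) and Dll4 (−0.48) did not pass the test. Of the receptors, Notch4 fell by 1.65 (SE 0.033, adjusted p = 2.02e-19) and Notch1 (0.05) did not pass it. Pofut1, which fucosylates the same kind of EGF repeat that Eogt modifies, fell by 1.06 (SE 0.057, adjusted p = 1.88e-08).

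Cxcl12, the ligand of Cxcr4 and of the scavenging receptor Ackr3 (ENSMUSG00000061353, chr6:117168535-117181367, plus strand), was at 13788, 13901 and 13734 in PBS, 15078, 14825 and 14781 at 15 min, 11793, 11632 and 11726 at 30 min and 1818, 1801 and 1903 at 4 h. It was above PBS at 15 min, below it at 30 min, and lower by 7.43-fold at 4 h with 20 added to each mean. Cxcr4 fell by 1.22 (SE 0.18, adjusted p = 8.55e-04), and Ackr3 rose by 1.19 (SE 0.034, adjusted p = 1.49e-14), a rise that was not called under library size alone.

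Ramp2 joins the receptor Calcrl to form the adrenomedullin receptor (ENSMUSG00000001240, chr11:101246028-101259546, plus strand). It was the second most abundant member per length, at 622 TPM in PBS. Its normalized counts were 6719, 6755 and 7167 in PBS, 8588, 8587 and 8226 at 15 min, 9777, 9889 and 9795 at 30 min and 966, 1054 and 920.4 at 4 h. Both early groups lay above PBS, by 0.30 and 0.51 on the log2 scale, before the change of −2.79 at 4 h. The ligand Adm rose by 4.78 (SE 0.12, adjusted p = 1.30e-19), from 98.8 ± 34.1 to 2565 ± 145 normalized counts. Calcrl (0.28), Ramp1 (−0.35) and Ramp3 (0.59) did not pass the test. Ramp2 overlaps Vps25 on the same strand over 5840 bases. Vps25 changed by −0.50.

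Edn3, an endothelin peptide, was at 3105, 3210.0 and 3120.1 in PBS, 3097, 3133 and 3206 at 15 min, 2909.7, 2897 and 2958 at 30 min and 553, 508 and 435 at 4 h. It changed by −2.61 at 4 h, with 15 min overlapping PBS and 30 min just below it. The receptor Ednrb rose by 1.05 (SE 0.071, adjusted p = 7.19e-07) and the processing enzyme Ece1 by 0.98 (SE 0.024, adjusted p = 1.06e-13), and both rises were lost under library size alone. Edn1 (0.55) and Ednra (0.33) did not pass the test. Egfl8, the nearest relative of Egfl7, fell by 1.01 (SE 0.043, adjusted p = 1.08e-09).

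**Figure D2:**
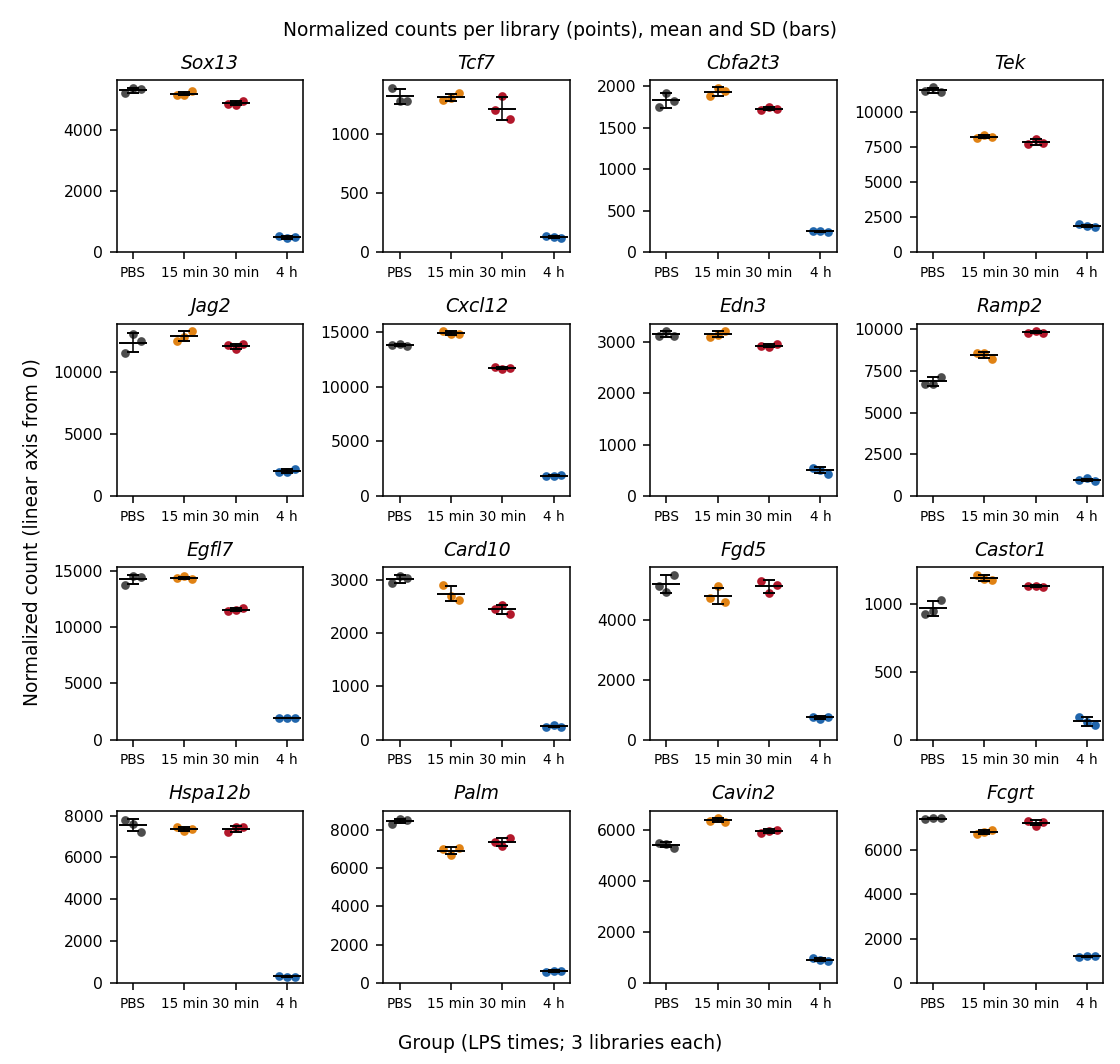
Normalized counts (linear axes from 0) of 16 members in PBS, 15 min, 30 min and 4 h, ordered by role. Points are the 3 libraries of a group, and bars give mean and SD. Ramp2, Castor1 and Cavin2 stand above PBS at both early times and Tek below it, and in every panel the 4 h points lie near the bottom.

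The adaptors, kinases and exchange factors included Card10 (CARMA3), a scaffold that joins Bcl10 and Malt1 on the way to NF-kB (ENSMUSG00000033170, chr15:78775138-78803042, minus strand). It had 2944, 3083 and 3047 normalized counts in PBS, 2901, 2706 and 2633 at 15 min, 2453, 2541 and 2357 at 30 min and 239.8, 266 and 235 at 4 h. Both early groups were below PBS without overlap, and its change at 4 h was −3.51. Its partners moved the other way, with a rise of 2.31 (SE 0.059, adjusted p = 1.86e-18) in Bcl10 and of 1.24 (SE 0.068, adjusted p = 1.32e-09) in Malt1, the latter not called under library size alone.

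Fgd5 is an exchange factor for the small GTPase Cdc42 that is typical of endothelium (ENSMUSG00000034037, chr6:91978878-92076004, plus strand). Its counts were 5166, 4964 and 5536 in PBS, 4738, 5141 and 4631 at 15 min, 5327, 4908 and 5203 at 30 min and 770.4, 694 and 774 at 4 h, with overlap of PBS and both early groups and a change of −2.77 at 4 h. Its relatives Fgd1 and Fgd2 fell by 1.42 (SE 0.15, adjusted p = 5.85e-06) and 2.72 (SE 0.19, adjusted p = 3.70e-10). Pkn3, a serine/threonine kinase, changed by −3.09, and its relative Pkn2 (0.52) did not pass the test. Grb7, an adaptor of receptor tyrosine kinases, changed by −3.04, and its relative Grb14 fell by 2.29 (SE 0.084, adjusted p = 3.57e-15). Dok4, a docking protein of the same receptors, changed by −2.60. Castor1, the arginine sensor of the mTORC1 pathway, was at 931, 950.2 and 1036 in PBS, 1217, 1184 and 1181 at 15 min, 1139, 1136 and 1127 at 30 min and 170.1, 128 and 107 at 4 h. Both early groups stood above PBS, and the change at 4 h was −2.68. Castor2 fell by 0.92 (SE 0.071, adjusted p = 4.72e-05).

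Of the 8 genes of the cytoskeleton, membrane and vesicles, Kif26a and Palm had the lowest changes. Kif26a, an atypical kinesin (ENSMUSG00000021294, chr12:112146208-112181747, plus strand), was at 3873, 3832 and 3947 in PBS, 3004, 2821 and 2877 at 15 min, 2451, 2738 and 2592 at 30 min and 148, 211 and 206 at 4 h. Its early groups did not overlap PBS, and its change of −0.58 at 30 min was just inside the limit. Palm, the membrane-anchored protein paralemmin (ENSMUSG00000035863, chr10:79793572-79820896, plus strand), was at 8312, 8539.8 and 8481 in PBS, 6968, 6699.7 and 7029 at 15 min, 7339, 7168 and 7546 at 30 min and 565, 633 and 655 at 4 h, a change of −3.73. Both early groups were below PBS, with 15 min the lower of the pair. Its relatives moved apart, as Palm3 fell by 1.49 (SE 0.22, adjusted p = 1.91e-04) and Palmd rose by 1.25 (SE 0.033, adjusted p = 1.12e-15).

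Cavin2 coats caveolae (ENSMUSG00000045954, chr1:51289126-51302960, plus strand). It was at 5498, 5482 and 5327 in PBS, 6369, 6478 and 6328 at 15 min, 5903, 5993 and 6030.4 at 30 min and 971, 911 and 854 at 4 h. Both early groups were above PBS without overlap, and the change at 4 h was −2.55. Other genes of caveolae fell as well, Cav1 by 1.77 (SE 0.033, adjusted p = 2.12e-20), Cav2 by 2.46 (SE 0.046, adjusted p = 2.85e-21) and Cavin1 by 1.17 (SE 0.025, adjusted p = 6.45e-17). Cavin3 rose by 1.75 (SE 0.041, adjusted p = 2.66e-18). Cavin4 fell by 1.97 (SE 0.60, adjusted p = 0.0260) from few counts, a call that was lost without PBS library 3 (adjusted p = 0.0995) or 4 h library 3 (adjusted p = 0.116) and in DESeq2 (adjusted p = 0.0797).

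Ablim1, which links actin filaments to other proteins (ENSMUSG00000025085, chr19:57032733-57314919, minus strand), was at 10818, 11085 and 10198 in PBS, 9595, 9786 and 9551 at 15 min, 8449, 8387 and 8285 at 30 min and 1896, 1854 and 1775 at 4 h, with both early groups below PBS and a change of −2.53 at 4 h. Shroom1, another actin-binding protein, was at 1475, 1402 and 1357 in PBS, 1779.9, 1762 and 1923 at 15 min, 1708, 1719 and 1564 at 30 min and 209, 242 and 212 at 4 h. It was above PBS at both early times (0.36 and 0.23 on the log2 scale) and changed by −2.57 at 4 h. Its relatives Shroom2 and Shroom3 rose by 1.06 (SE 0.053, adjusted p = 4.54e-09) and 0.97 (SE 0.10, adjusted p = 3.34e-04), both lost under library size alone. Kank4, of a family that links adhesions to the cytoskeleton, changed by −2.65, and its relatives Kank2 and Kank3 fell by 1.53 (SE 0.041, adjusted p = 1.06e-16) and 0.64 (SE 0.031, adjusted p = 0.0309). The call of Kank3 was lost without PBS library 2 (adjusted p = 0.0648) or 4 h library 2 (adjusted p = 0.262) and in DESeq2 (adjusted p = 0.141). Aif1l, an actin-binding protein, changed by −2.71, and Vamp5, a SNARE of vesicles, by −2.53.

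The 5 genes of the matrix and its turnover had a median change of −2.69. Hmcn1 encodes hemicentin, a very large extracellular protein (ENSMUSG00000066842, chr1:150562524-150993435, minus strand). It was at 1303, 1437 and 1513 in PBS, 1514, 1977 and 1337 at 15 min, 1306, 869 and 1389 at 30 min and 316, 127 and 102 at 4 h. Library 1 of 4 h was well above the other two, and the change of −2.83 rests on these unequal libraries. With summed counts scaled with TMM, in place of the deposited values, the change was −1.82 (3.54-fold lower), outside the limit of the rule.

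Adamtsl2, an ADAMTS-like protein of microfibrils (ENSMUSG00000036040, chr2:27079379-27108981, plus strand), was at 374, 587 and 418 in PBS, 779, 483 and 595 at 15 min, 778, 521 and 591 at 30 min and 32.3, 63.5 and 85.9 at 4 h, a change of −2.57 with early groups that overlapped PBS. Hyal2, a hyaluronidase anchored at the cell surface (ENSMUSG00000010047, chr9:107567945-107572779, plus strand), was at 2153, 1858 and 1902 in PBS, 2648, 2444 and 2141 at 15 min, 3101, 2703 and 2830.2 at 30 min and 182, 323 and 158 at 4 h. Its libraries of 30 min were all above PBS, at 0.54 on the log2 scale, the highest early value of the set, and its change at 4 h was −3.05. Among other genes of hyaluronan breakdown, Hyal1 fell by 2.10 (SE 0.10, adjusted p = 1.55e-12) and Cemip by 1.43 (SE 0.071, adjusted p = 3.95e-11), while Cemip2 rose by 3.30 (SE 0.036, adjusted p = 2.28e-26). Lama1, the laminin alpha 1 chain, was at 96.9, 303 and 116 at 4 h, where library 2 stood above the others, and changed by −2.69. Of the other laminin alpha chains, Lama3 fell by 0.95 (SE 0.074, adjusted p = 2.91e-05), while Lama2 (−0.42), Lama4 (0.65) and Lama5 (0.07) did not pass the test. Thsd1, an endothelial membrane protein with a thrombospondin domain, changed by −2.51.

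Of the genes of transport across membranes, Fcgrt encodes the heavy chain of the neonatal Fc receptor, which carries IgG and albumin across and back out of cells (ENSMUSG00000003420, chr7:45092990-45103851, minus strand). It was at 7369, 7413 and 7405 in PBS, 6721, 6793 and 6894 at 15 min, 7285, 7079.5 and 7260.5 at 30 min and 1180.3, 1203 and 1232 at 4 h. The early groups were slightly below PBS, and the change at 4 h was −2.60. Its light chain B2m rose by 1.67 (SE 0.022, adjusted p = 4.00e-23), from 15896 ± 187 to 50555 ± 223 normalized counts. The transporters Abca8a and Abcc6, both of the ABC family, changed by −2.75 and −2.70. With summed counts and TMM, Abca8a changed by −1.54 (2.91-fold lower). On that scale 7 members lay outside the 4 h limit, which were Abca8a, Hmcn1, Abcc6, Dok4, Hyal2, Lama1 and Vamp5, and the last 5 of these were 5.34-fold to 5.53-fold lower. Their relative Abca9 fell by 1.60 (SE 0.097, adjusted p = 3.90e-10) and Abcc1 rose by 1.79 (SE 0.052, adjusted p = 1.30e-16).

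Gkn3, a secreted protein of the gastrokine family that marks arterial endothelium in the mouse brain (ENSMUSG00000030048, chr6:87383256-87388935, minus strand), had 369 TPM in PBS. Its normalized counts were 3236, 3260.2 and 3022 in PBS, 3752, 3629.7 and 3826 at 15 min, 3364, 3414 and 3303 at 30 min and 486, 425 and 519.7 at 4 h. Both early groups were above PBS, and the change at 4 h was −2.68. AI467606, a little known gene (ENSMUSG00000045165, chr7:127091359-127093986, plus strand), was at 806, 959.9 and 862 in PBS, 943, 963 and 977 at 15 min, 600.1, 640.5 and 652 at 30 min and 54.4, 42.8 and 37.7 at 4 h. It overlapped PBS at 15 min and was lower at 30 min, ahead of a change of −3.79. BC028528, also little known, was at 729, 723 and 762 in PBS, 957, 975 and 890.3 at 15 min, 948, 949 and 1058 at 30 min and 105, 88.5 and 91.9 at 4 h, above PBS in all 6 early libraries and with a change of −2.72 at 4 h. Fam13c changed by −2.94.

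The 3 transcripts not annotated as coding were below PBS at both early times without overlap. Notumos, antisense to the Wnt inhibitor Notum (ENSMUSG00000053613, chr11:120659157-120661815, plus strand), was at 391, 392 and 469.7 in PBS, 317, 328 and 302 at 15 min, 292, 326 and 231 at 30 min and 5.10, 2.95 and 4.52 at 4 h. It kept 1.00% of its PBS level, the least of all members. Gm44065 (ENSMUSG00000107502, chr6:97148194-97151720, plus strand) was at 754, 746 and 629.6 in PBS, 578, 607 and 603 at 15 min, 547, 532 and 499 at 30 min and 49.3, 56.1 and 54.2 at 4 h. The libraries carry no strand, so reads of overlapping genes on opposite strands cannot be told apart. Notumos shares 2019 bases with Notum, which changed by −4.93, and Gm44065 shares 989 bases with the member Eogt. Gm45552, with a change of −2.93, also overlaps another gene.

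Of the coding members, 11 overlap another annotated gene that passed a minimum mean of normalized counts in any group, Eogt and Ramp2 included. Overlaps with genes of lower counts were left out. Others were Degs2 with Evl (change of Evl −0.11), Hyal2 with Gm9917 (−1.22), BC028528 with C920021L13Rik (−1.64) and Dok4 with Polr2c (−0.01). These changes of overlapping genes are from group means, as those of the members are. The PBS mean of the member was the higher of the pair in Degs2, Hyal2 and BC028528, and that of Polr2c (1071) was higher than that of Dok4 (916). The nearest genes on either side of the members were 82 genes that are no members, of which 22 (26.8%) were lower and 12 were higher at 4 h in the test across all genes, beside the 13.8% and 19.0% of all genes.

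At the early times the members did not move as 1 group. The median log2 change was −0.03 at 15 min and −0.24 at 30 min, and that of all genes with a PBS mean of at least 400 was −0.02 and −0.01. At 15 min, 16 members lay below every PBS library, beside 30.9% of those genes, 8 lay above, beside 25.6%, and 19 overlapped. At 30 min, 24 of the 43 lay below, a larger share than the 27.8% of those genes, 7 lay above, beside 25.7%, and 12 overlapped. Both changes were downward in 22 members, upward in 9 and opposite in 12. Ramp2, BC028528, Gkn3, Castor1, Shroom1 and Cavin2 were above PBS in all 6 early libraries. The early window of the rule bounds these changes, and nothing is read from them about the members as a set.

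**Figure D3:**
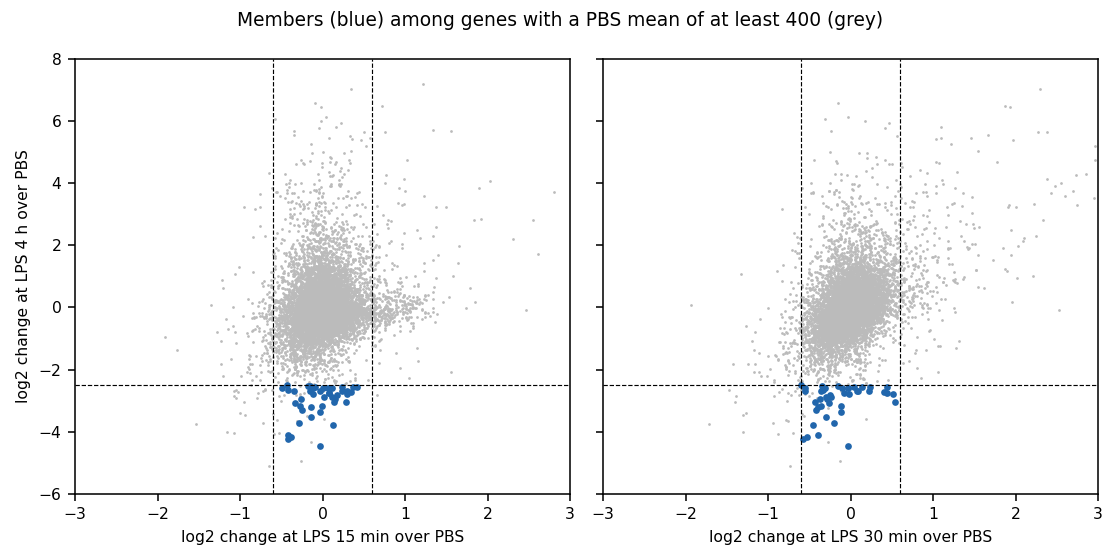
Log2 change from PBS at 15 min and at 30 min (x axes) against that at 4 h (y axis) for the 8677 genes with a PBS mean of at least 400 (grey) and the 43 members (blue), from group means + 20. The members lie in the box that the rule drew (dashed lines), between −0.6 and 0.6 and under −2.5, where the grey points are genes left out by name or chromosome or genes outside the window at the other early time, and 20 genes, none of them a member, lie beyond the axes.

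Relatives and partners were listed for the members by family, receptor or complex. Of 112 such genes 109 were tested, and 28 (25.7%) were lower, 19 (17.4%) were higher and 62 did not pass the test. The list is set beside all genes, of which 13.8% were lower and 19.0% higher, as a description. Under library size alone, 11 of the 19 rises were no longer called (Ackr3, Ece1, Ednrb, Fam13b, Hmcn2, Malt1, Palmd, Seh1l, Shroom2, Shroom3 and Tcf7l2), a scaling that moves the median of all genes with a PBS mean of at least 400 to −0.72 from −0.04. Rises that were called under both scalings included those of Dll1, Angpt2, Adm, Bcl10, Cemip2 and B2m.

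**Figure D4:**
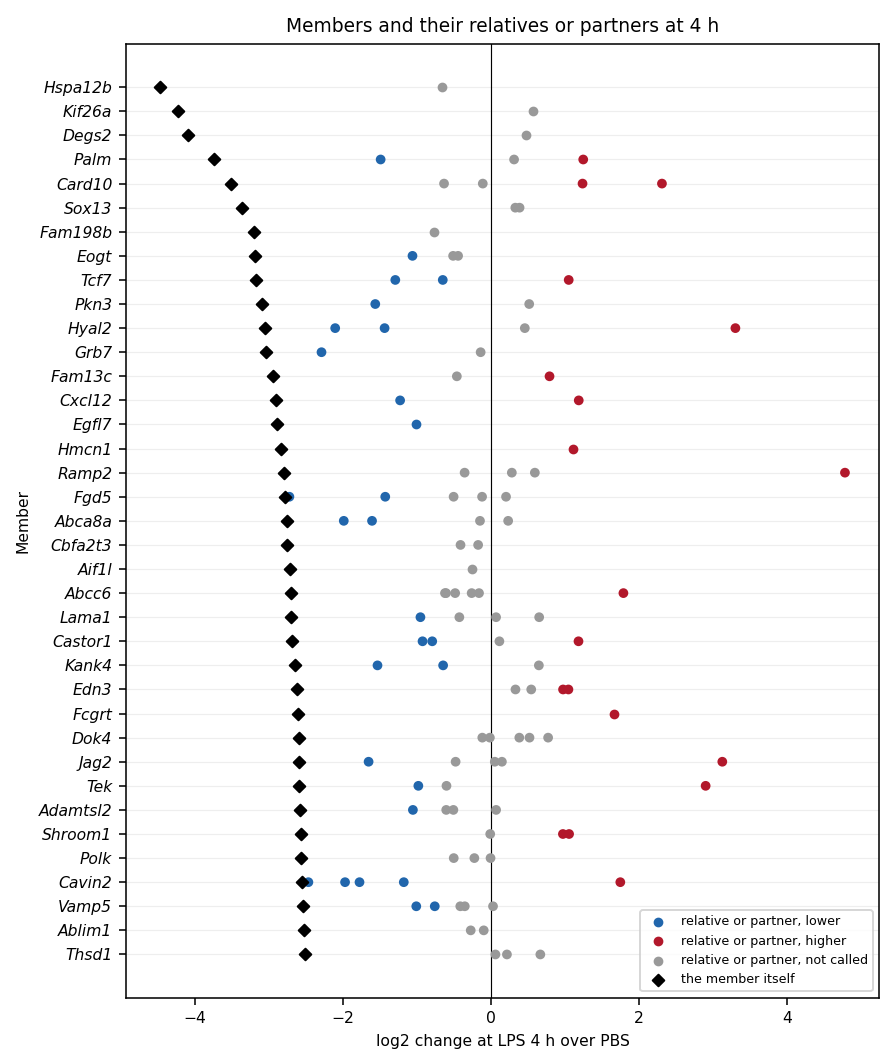
Log2 change at 4 h (x axis) of each member (diamonds, from group means + 20) and of its relatives or partners (points, from the edgeR fit), 1 row for each member with a tested relative. Relatives lie on both sides of 0 (blue lower, red higher, grey not called), from Fgd2 at −2.72 to Adm at 4.78.

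Lists of the pathways that the members belong to were counted without the members, in the test across all genes, and their shares stand beside the 13.8% lower and 19.0% higher of all genes. Genes that met the 4 h limit but were no members stayed in the lists, such as Notum, Sox17 and Sox18, which were barred by name only. In the Wnt/beta-catenin pathway, home of Tcf7, there were 13 lower (48.1%), 1 higher (3.70%) and 13 not called, with a median of −1.02. The lowest were Notum (−5.62), Tnfrsf19 (−2.61) and Nkd1 (−2.44), all targets or inhibitors of the pathway, and the 1 that rose was the receptor Fzd4 (1.84). In the Notch pathway, home of Jag2, there were 8 lower (38.1%), 4 higher (19.0%) and 9 not called, from the glycosyltransferase Lfng (−2.93), its relative Mfng (−2.37) and the target Hey1 (−2.08) to Dll1. The angiogenic receptors and ligands, with Tek, Egfl7 and Cxcl12, had 16 lower (38.1%), 12 higher (28.6%) and 14 not called, the lowest being Aplnr (−5.01), the VEGF receptor Kdr (−2.18) and Efna1 (−2.10), the highest Angpt2. The endothelial transcription factors, with Tcf7, had 17 lower (38.6%), 12 higher (27.3%) and 15 not called, from Sox18 (−4.36), Sox17 (−3.52) and Klf4 (−2.07) to Meox1 (2.39).

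Junctions and caveolae, with Cavin2, had 11 lower (32.4%), 9 higher (26.5%) and 14 not called, from Cav2 (−2.46), the tight junction gene Cldn5 (−2.31) and the lipid transporter Mfsd2a (−1.92) to the connexin Gja1 (2.81). The basement membrane and matrix list, with Hmcn1 and Adamtsl2, had 11 lower (22.9%), 15 higher (31.3%) and 22 not called, from Vwa1 (−2.32), Spock2 (−2.12) and Itih5 (−1.62) to the protease Adamts9 (7.07). Lipid and sterol handling, with Degs2, had 7 lower (13.7%), 17 higher (33.3%) and 27 not called, from the phosphatase Sgpp2 (−3.08), Lrp8 (−1.56) and the prostacyclin synthase Ptgis (−1.23) to Angptl4 (5.43). Small GTPase regulators, with Fgd5, had 9 lower (16.7%), 19 higher (35.2%) and 26 not called, from Arhgef10 (−2.09), Rasgrp2 (−1.81) and Tiam1 (−1.60) to Rnd1 (7.44), and G protein receptors and second messengers, with Ramp2, had 10 lower (19.2%), 15 higher (28.8%) and 27 not called, from Ptgfr (−3.26), S1pr4 (−3.08) and P2ry1 (−1.63) to Rgs16 (6.05).

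The lists without a member were the BMP and TGF-beta pathway, with 7 lower (22.6%), 5 higher (16.1%) and 19 not called (lowest Smad9, −1.88, Smad6, −1.64, and Smad7, −1.56, highest Smad1, 2.63), ion channels and pumps, with 9 lower (19.6%), 10 higher (21.7%) and 27 not called (lowest Aqp11, −1.56, Car4, −1.39, and Clcn2, −1.20, highest Clic4, 3.28), and clock genes, with 5 lower (25%), 5 higher (25%) and 10 not called (lowest Dbp, −2.58, Tef, −1.39, and Nr1d1, −1.36, highest Nfil3, 3.68). Over all 12 lists, members left out, 246 of 469 genes were called, 122 lower and 124 higher. Under library size alone the split was 235 lower and 64 higher.

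The markers of endothelial cells, measured beside the members, went in different directions at 4 h. Outside the set, Pecam1 (−1.05), Cldn5 (−2.31), Kdr (−2.18) and Abcb1a (−1.39) fell, Cdh5 (1.96) and Esam (0.73) rose, and Tie1, Flt1 and Emcn did not pass the test. Tek, Egfl7 and Ramp2 are markers and members. The summed level of the 12 markers lay between 7756 and 8066 TPM in PBS and between 1889 and 1969 TPM at 4 h, on a scale on which the median of all genes with a PBS mean of at least 400 changed by −0.91 on the log2 scale at 4 h. This sum includes Egfl7, Ramp2 and Tek, at 1457, 622 and 191 TPM in PBS. The rule chose them as low at 4 h, so part of the lower sum follows from the rule. Pericyte markers summed to between 2891 and 3010.0 TPM in PBS and between 1295 and 1307 TPM at 4 h, with 3 of 10 lower and 0 higher, smooth muscle markers to between 2062 and 2074 TPM in PBS and between 1075 and 1097 TPM at 4 h, with 1 of 8 lower and 1 higher, and fibroblast markers to between 352 and 369 TPM in PBS and between 122 and 127 TPM at 4 h, with 4 of 7 lower and 0 higher. Neutrophil markers summed to between 12.4 and 17.0 TPM in PBS and between 586 and 607 TPM at 4 h, and all 6 that could be tested of 7 were higher. Red blood cell markers summed to between 9737 and 10963 TPM in PBS and between 16270.4 and 17086 TPM at 4 h, with 5 of 5 higher, and choroid plexus markers, mostly Ttr, to between 16629.9 and 17338 TPM in PBS and between 14867 and 15934 TPM at 4 h, with 4 of 5 higher. Of the other lists, 4 of 8 microglia markers, 2 of 7 neuron markers and 2 of 7 oligodendrocyte markers were lower and 0 higher, while 3 of 5 perivascular macrophage markers and 3 of 7 astrocyte markers were higher and 0 lower. The part of a change in cell types in the low level of the members at 4 h was not tested.

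The share of each transcript within its gene was not itself a measure of the rule, but the gene values that the rule took carry a factor for the average transcript length, so that shares are not fully independent of the choice of members. It was tested across 10923 genes (edgeR diffSpliceDGE, adjusted p below 0.05). Of 34 members with at least 2 transcripts past the filter, 8 (23.5%) had a called change in transcript usage at 4 h, beside 4.81% of all genes tested and 6.30% of the 7107 with a PBS mean of at least 400. At an unadjusted p below 0.05 there were 10. The other 9 members were not tested. The rule was also applied to summed counts scaled with TMM, which carry no length factor (chosen after seeing the data). It found 40 genes, 30 of them were tested, and the same 8 (26.7%) were called. Of these 40 genes, 36 are members, and the usage fit was the same, so the calls are no separate test of usage. They show only that the 8 genes also met the rule without the length factor. At 30 min, when the levels were near PBS by the rule, edgeR called 0 of the 34, beside 2.13% and 2.74%, with 1 at an unadjusted p below 0.05 and a smallest adjusted p of 0.530. A second tool, limma's diffSplice, called 4 of the 34 at 4 h (Ablim1, Cxcl12, Palm and Ramp2) and 6 of the 34 at 30 min (Abca8a, Cxcl12, Hmcn1, Palm, Ramp2 and Tcf7), beside 15.6% and 9.40% of all genes. In limma the share of members called was thus below that of all genes at 4 h and above it at 30 min, the reverse of edgeR. Palm, Cxcl12 and Ablim1 were called at 4 h by both tools.

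Palm had the smallest adjusted p in edgeR (6.58e-15). Transcript Palm-202 held 13.7, 10.2 and 11.8% of the fragments of the gene in the 3 PBS libraries and 49.8, 58.8 and 73.6% in those of 4 h, while Palm-201 went from 78.9% to 36.6% on average. The groups did not overlap, and at 30 min Palm-202 stood between them at 19.5, 17.8 and 18.3%. In Cxcl12 (adjusted p = 3.16e-09), Cxcl12-202 went from 9.18, 9.79 and 9.56% to 26.9, 28.4 and 30.9%, while Cxcl12-201 went from 47.8% to 36.5%. In Ablim1 (adjusted p = 2.51e-05), Ablim1-202 went from 3.69% to 20.2% and Ablim1-207 went from 93.3% to 73.9%.

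In the other 5 called members a transcript was at or near 0 at 4 h. Shroom1-204 held 22.4, 25.2 and 18.5% of the fragments of Shroom1 in PBS, from 393, 487 and 290.0 estimated counts, and had 0 estimated counts in all 3 libraries of 4 h (adjusted p of Shroom1 = 5.17e-08). Jag2-205, a processed transcript, had 179, 308 and 295 estimated counts in PBS, 1.69% of the gene, and 0 in all 3 libraries of 4 h (adjusted p of Jag2 = 2.34e-07), while the main transcript Jag2-201 held 94.4% and 94.8%. Pkn3-205, with a retained intron, went from 27.8% to 2.55% (adjusted p of Pkn3 = 3.31e-04). Polk-202 had 79.0, 147 and 46.0 estimated counts in PBS, 2.72% of the gene, and 0 in all 3 libraries of 4 h (adjusted p of Polk = 0.0111). Fcgrt-206 went from 1.46% to 0.0938% (adjusted p of Fcgrt = 0.0364). An estimate of 0 for 1 transcript among several of a gene with few fragments can be a failed assignment, which was not tested. The call of Fcgrt was lost in 4 fits without 1 library (PBS 1, PBS 3, 4 h 2 or 4 h 3, adjusted p = 0.0817 to 0.240), and that of Polk in 4 as well (PBS 2, 4 h 1, 4 h 2 or 4 h 3, adjusted p = 0.0626 to 0.105). In limma's diffSplice, Shroom1, Jag2, Pkn3, Polk and Fcgrt were not called (adjusted p = 0.179 to 0.637).

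**Figure D5:**
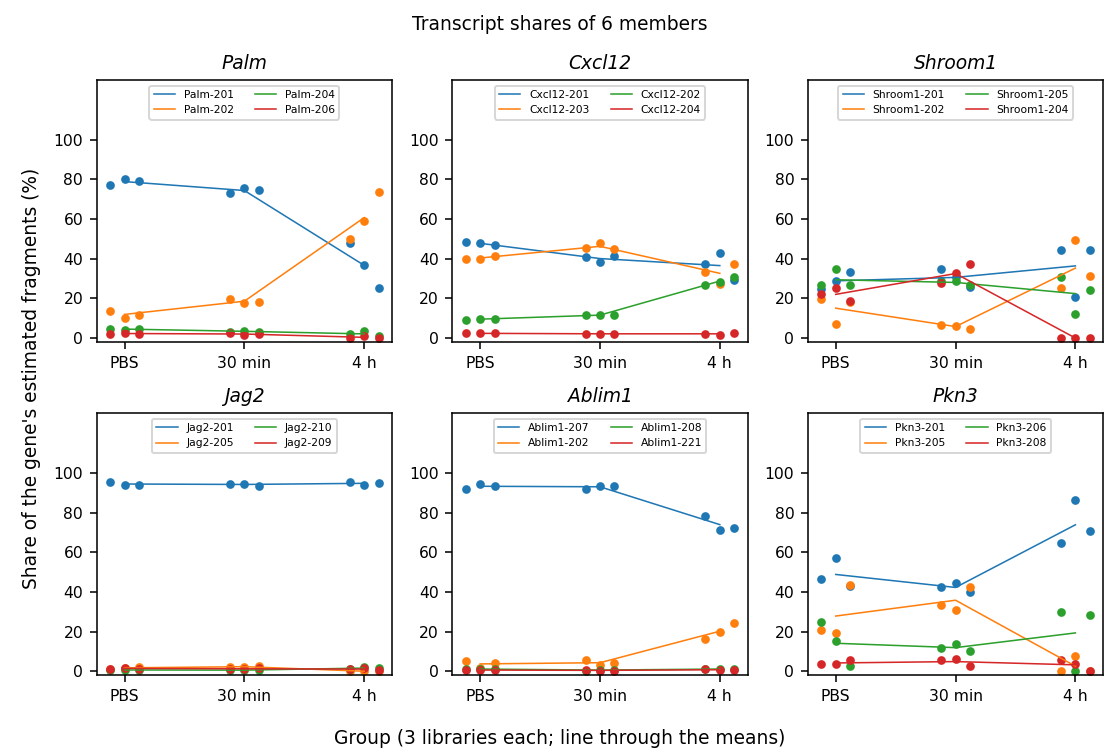
Share of the gene's estimated fragments (%) held by up to 4 transcripts in the 3 libraries of PBS, 30 min and 4 h, for the 6 members with the smallest adjusted p at 4 h. Points are libraries and lines join the means, and Palm-202 goes from 11.9% to 60.7% while Jag2-201 holds 94.4% and 94.8%.

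Pooled over the 40 coding members, transcripts annotated with a retained intron held 6.34% of all fragments in PBS, 7.63% at 15 min, 7.20% at 30 min and 6.95% at 4 h. Over the 8531 coding genes with a PBS mean of at least 400, the pooled shares were 5.22%, 6.05%, 4.79% and 4.33%. Genes with many fragments weigh most in these sums. Per gene, the median share in single libraries was 0% to 0.134% in members, with 0% in all 3 libraries of 4 h. It was 0.411% to 0.512% in the 8531 genes, so that the medians lay the other way from the sums. No test was run on these shares.

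The structure of the 40 coding members, read from the coding transcript with the highest TPM in PBS, was close to that of the other 8482 coding genes with a PBS mean of at least 400. The median transcript length was 3124.5 against 3168 bases, with 9.5 against 10 exons, a coding length of 1554 against 1422 bases, a 3′ untranslated region (UTR) of 1062 against 1137 bases and a gene span of 25465 against 27567 bases. TPM favours short transcripts, such as Hmcn1-206 and Hyal2-202, and in 5 members another coding transcript held most fragments. With that transcript (chosen after seeing the data), the median length was 3396.5 against 3308 bases and the 3′ UTR 1086.5 against 1200.5 bases. The median PBS level was higher, at 64.4 against 31.9 TPM.

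ATTTA, the core letters of the AU-rich elements found in many short-lived mRNAs, occurred in the 3′ UTR of 52.5% of the members and of 68.7% of the other genes. Per kilobase of the 3′ UTR, the medians were 0.471 and 1.29 copies, and the GC share of the region was 48.3% and 45.0%. By the transcript with most fragments, ATTTA occurred in 52.5% and 70.4%, at medians of 0.415 and 1.31 copies. In the 30 genes that were as low at 4 h but lower early as well, ATTTA occurred in 76.7%, the 3′ UTR had a median of 1748.5 bases, and the median number of exons was 5. These are descriptions of lists chosen by their expression, and no test was run on them.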

How the data were processed

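RNA of cerebral vessels was sequenced with SMART-Seq v4 and Nextera XT libraries on a NovaSeq, without strand. The authors quantified paired reads with Salmon 1.2.1, and per the labels used DESeq2 and GRCm38.p6. Estimated counts and TPM per transcript were deposited for each library, and the deposited gene table holds a normalized signal, counts divided by size factors and by average transcript length factors. The gene table was used for the rule, levels and changes of members, with 20 added to each group mean. All its columns were used (0 columns of other samples). Transcripts were joined to GENCODE annotation of GRCm38 by identifier, with 99.2% to 99.5% of fragments of a library joined. Estimated counts were summed per gene and rounded. A depth of 18.3 to 25.9 M fragments sets the counting error.

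Genes past filterByExpr were tested with edgeR 4.0.16 (R 4.3.3, TMM, glmQLFit, glmTreat against 1.5-fold) in 1 fit of all 12 libraries, with Benjamini-Hochberg adjustment. Transcript usage was tested with diffSpliceDGE on transcript counts, with Simes p per gene. Scripts were tested on simulated data. The members and lists were chosen with earlier results of these data known, and the families of relatives after the members were listed. Values in every library were given for the 10 members with the lowest change, the 5 with the highest PBS mean and the 5 with the highest PBS TPM among the rest, and members of pathway lists, and also for Cbfa2t3, Edn3, Castor1, Shroom1 and BC028528, chosen after their values were seen. Of each list, the 3 called genes with the lowest change and the 1 with the highest were named, and of the usage tests the 6 members with the smallest adjusted p. Nothing in the labels ties libraries to cultures or days, so that p-values measure the spread between pools of mice. The alternatives were other limits and pseudocounts (5 and 50) of the rule, RLE factors, library size only, TPM (pseudocount 0.1), no filter, DESeq2 1.42.0 (local dispersion fit), limma 3.58.1 diffSplice, a minimum transcript count of 50, a replicate block, leaving out each library and, chosen after seeing the data, the rule on summed counts for transcript usage and the transcript with most fragments for structure.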

Additional observations from a re-analysis of the deposited data

Results flagged for a closer look

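In 9 members the libraries of 15 min, of 30 min or of both stood above every PBS library while the 4 h libraries stood below every one, which at 4 h follows in part from the rule. It was so at both early times in 6 of them, while Fam13c and Cxcl12 were below PBS at 30 min and Hyal2 overlapped PBS at 15 min. At 15 min the log2 changes from PBS were 0.16 for Fam13c, 0.11 for Cxcl12, 0.30 for Ramp2, 0.34 for BC028528, 0.23 for Gkn3, 0.29 for Castor1, 0.36 for Shroom1 and 0.23 for Cavin2. At 30 min they were 0.54 for Hyal2, 0.51 for Ramp2, 0.41 for BC028528, 0.082 for Gkn3, 0.22 for Castor1, 0.23 for Shroom1 and 0.14 for Cavin2. The 4 h changes of these members chose them, and the difference between the times was not tested. The 8 members above PBS at 15 min and the 7 at 30 min are smaller shares of the 43 than the 25.6% and 25.7% of the 8677 genes with a PBS mean of at least 400.

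The values at 15 min were above 0 on each of the 4 scales that were computed. At 30 min, 4 of the 7 were at or below 0 on another scale. Gkn3 was at −0.07 with library size alone and −0.20 in TPM, Cavin2 at −0.15, Castor1 at −0.06 and Shroom1 at −0.05 in TPM, on which the median of all genes with a PBS mean of at least 400 was −0.30. Hyal2, Ramp2 and BC028528 stayed above 0 on all 4 scales at 30 min, the lowest value being 0.13 for BC028528 in TPM.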

How the results depend on the processing

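The rule found 92 genes with a 4 h limit of −2, 15 with −3, 18 with an early window of 0.3, and 114 with counts scaled by library size only, 37 of them shared with the 43. With TMM it found 40, 36 of them shared, and without single libraries 41 to 44. The median change at 4 h was −2.67 with TMM, −3.35 with library size only, −3.69 in TPM, −2.89 with a pseudocount of 5, −2.61 with 50, and −2.85 to −2.75 without single libraries. No member changed direction at 4 h under these alternatives. Of all genes, 10462 were called with library size only (8555 lower, 1907 higher), against 6273 (2637 lower, 3636 higher). The pathway lists had 299 calls with library size only (235 lower, 64 higher), against 246. Other settings left both counts within 1.5 times. With library size only, Lama5 (−0.63), Notch1 (−0.65) and Vamp3 (−0.67) turned from above to below 0 and were called lower. Over the list genes and relatives 1621 values were counted as the same, 34 lost the call, 36 gained it and 3 reversed. A change of direction in a gene that neither fit called was counted as the same. limma's diffSplice called 4 of 34 members at 4 h and 6 of 34 at 30 min, beside 15.6% and 9.40% of all genes, against 8 and 0 members with edgeR. Leaving out single libraries gave 7 to 8 at 4 h and 0 at 30 min. The calls of Fcgrt and Polk were lost in 4 such fits each. Fcgrt was not called without PBS 1, PBS 3, 4 h 2 or 4 h 3, and Polk without PBS 2, 4 h 1, 4 h 2 or 4 h 3. The cause was not tested.

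The library numbers did not pair the samples: deviations of same-numbered libraries correlated at −0.07 to 0.07 over 18 pairs, and 16 of 36 best matches had the same number. With the replicate block, 6235 genes, 246 list genes, 8 members for usage at 4 h and 0 at 30 min were called. Depth limits the transcript shares of members at 4 h, which rest on few fragments.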
